A study of Mus musculus with 24 samples.

Results

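The liver X receptors (LXRs), 4 of their target genes and 4 apolipoprotein genes of the E and C families were followed in retroperitoneal adipose tissue, a white fat depot behind the abdominal cavity, of 24 mice (C57BL/6J in the labels, C57BL/6JRJ in the study's methods). The genes were taken by symbol: the receptors Nr1h2 and Nr1h3, the targets Abca1, Abcg1, Mylip and Lpcat3, and the apolipoproteins Apoe, Apoc1, Apoc2 and Apoc3. These are 10 of the 56895 entries used, and all 10 were found in each of the 8 tables, which hold 1 comparison between 2 groups each. They were chosen by earlier results of these data, namely the log2 library values by group. A lower Apoc3 in HF than in LF sons of VDD mothers was already known, so the 10 genes are only described in that comparison and in averages that contain it, with no p-value. The p-values of these genes in the other comparisons may also depend on that choice.

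Mothers received a diet with 1.0 IU (CTRL) or 0.0 IU (VDD) of vitamin D3 per g from 8 weeks before mating, and every mother had the CTRL diet after giving birth. At 6 weeks of age the offspring were put on a low fat (LF) or a high fat (HF, 45% of energy) diet for 8 weeks, and all were fasted overnight before tissue was taken. Sex, maternal diet and offspring diet gave 8 groups of 3 mice: CTRL LF, CTRL HF, VDD LF and VDD HF, each in males and females. No source used here gives the litters or batches, and p-values measure the spread between these mice.

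LXRα, the product of Nr1h3, and LXRβ, the product of Nr1h2, are nuclear receptors that bind oxidised cholesterol derivatives and act on DNA as heterodimers with retinoid X receptors. Their targets include the cholesterol exporters Abca1 and Abcg1, the ubiquitin ligase Mylip (also called Idol), which lowers the amount of LDL receptor, and Lpcat3, which puts polyunsaturated fatty acids into membrane phospholipids. Apoe, Apoc1 and Apoc2 sit side by side in the genome and are LXR targets in macrophages and fat. Apolipoprotein E is a ligand for lipoprotein receptors, apolipoprotein C-II activates lipoprotein lipase, and apolipoproteins C-I and C-III oppose the lipolysis and uptake of triglyceride-rich particles. Apoc3 lies on another chromosome, in the cluster with Apoa1, and is best known as a gene of liver and intestine.

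The promoter of Abca1 is shown because it holds a match to a loose form of the LXR response element, 2 half-sites separated by 4 bases. The letters searched for were NGGTNA, 4 bases of any kind and NGGTNA again, on both strands, in the 250 bases before each transcription start in RefSeq (GRCm38.p6). Of the 10 promoters listed for 7 of the 10 genes, 1 held a match, that of Abca1. Promoters of Abcg1, Apoc1 and Apoc3 were not analysed here. Among 32851 promoters of 27025 genes, 204 (0.621%) held the letters. The match is a description of the sequence only, since binding was not measured. The 150 bases before the Abca1 start, chr4:53159896-53160045 on the minus strand, are printed 5′ to 3′ with the matched letters in capitals, which read as the motif on the opposite strand and lie 67 to 52 bases before the start.
Abca1: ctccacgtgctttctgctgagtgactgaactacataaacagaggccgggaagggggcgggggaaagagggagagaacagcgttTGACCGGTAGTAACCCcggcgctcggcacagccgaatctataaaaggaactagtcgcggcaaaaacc

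In GENCODE M21 (GRCm38) Apoc2 (chr7:19671579-19677941), Apoc1 (chr7:19689481-19692660) and Apoe (chr7:19696109-19699188) lie within 27610 bases on the minus strand of chromosome 7, with Apoc4 between Apoc2 and Apoc1. The gap between Apoc1 and Apoe is 3448 bases. Apoc3 is at chr9:46232933-46235636, Nr1h2 at chr7:44549616-44553951, Nr1h3 at chr2:91184061-91202834, Abca1 at chr4:53030787-53159895, Abcg1 at chr17:31057675-31117988, Mylip at chr13:45389742-45412022 and Lpcat3 at chr6:124663027-124704418. For Apoc2, 79.5% of its 813 exon bases are shared with the read-through transcript Gm44805, and reads there could not be given to 1 gene.

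Levels are given as scaled reads, the reads of a gene divided by a size factor computed over the 24 libraries. Per kilobase of exon, Apoe was by far the most abundant of the genes, with a median of 20795 scaled reads per kb (range 10240 to 44895), and it took 0.15% to 0.56% of all reads. Apoc1 followed with 2707 (1271 to 7506). The medians of Nr1h3 (635), Abca1 (505), Lpcat3 (463), Mylip (332) and Nr1h2 (275) lay closer together, and Abcg1 (121) and Apoc3 (89.6) were lowest of those detected. Apoc3 varied most among libraries, the highest being 53.7 times the lowest, followed by Abcg1 at 10.9 times and Apoc1 at 5.9 times. For Apoe the ratio was 4.38 and for Nr1h2 it was 1.7.

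Each library held 13346779 to 18484346 reads on genes. Adipocyte markers such as Adipoq and Plin1 were abundant in every library, with a sum of 8 genes between 411631 and 1062534 scaled reads. The libraries differed in other cell types. The sum of 8 skeletal muscle genes ranged from 105 (CTRL LF female 2125) to 1093066 (VDD LF male 2310), kidney genes reached 8950 in VDD LF female 2303, and adrenal genes reached 32566 in CTRL HF female 2292. Liver and intestine are relevant for Apoc3: 9 of 10 hepatocyte markers, all but Alb, had a median under 10 scaled reads, and so had 4 of 5 enterocyte markers, with no read of Cdx2 in any library. In 6 libraries, 1 in each group but CTRL HF and VDD HF females, the deposited name holds the word renal, which the sources used here do not explain. Their kidney sums lay between 36.6 and 247. In whole tissue, fewer cells of a type and less RNA per cell cannot be told apart.

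**Figure D1:**
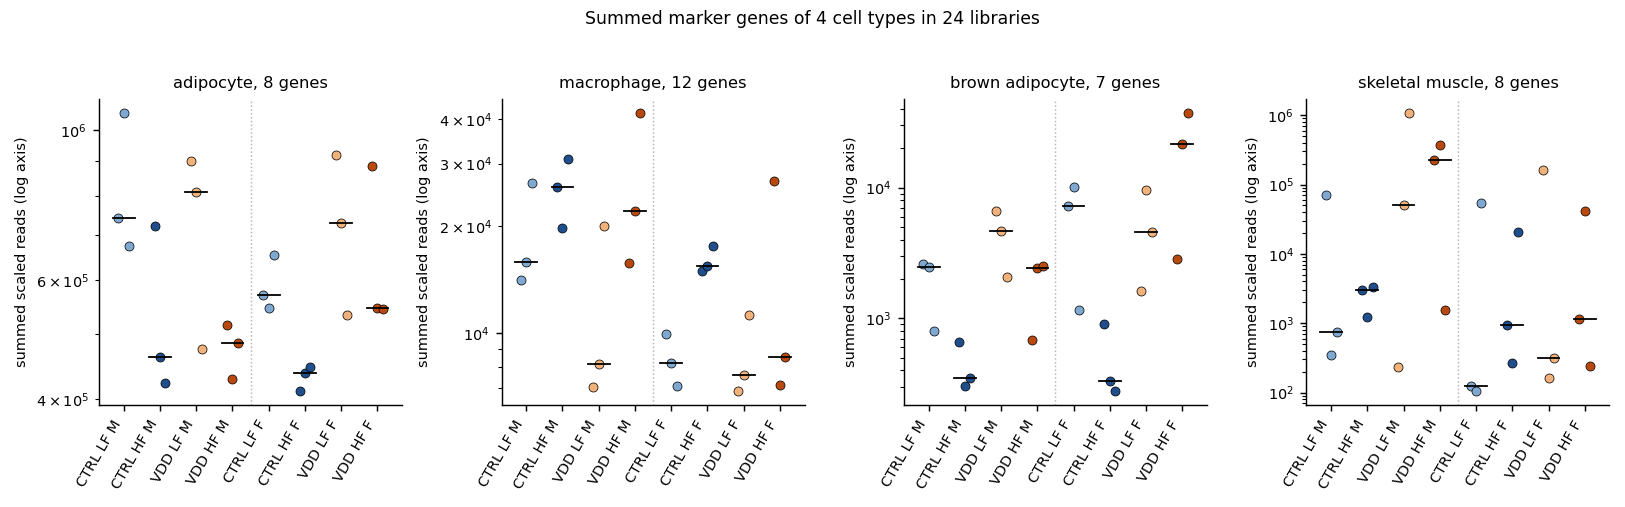
Summed scaled reads of the marker genes of 4 cell types (log axes) in each of the 24 libraries, by group, with M for males and F for females. Points are libraries and bars are group medians. Macrophage markers are higher in CTRL HF than in CTRL LF females without overlap, brown adipocyte markers are higher in VDD HF than in CTRL HF females without overlap, and muscle genes differ between libraries of the same group.

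Whether the diet given to the offspring went with other levels of these genes was examined first. Apoc3 was lower under HF than under LF in sons and daughters of both kinds of mothers, and in each of these 4 comparisons the 3 HF libraries lay below the 3 LF libraries. In males of CTRL mothers Apoc3 had 165, 157 and 77.3 scaled reads under LF, and 20.2, 6.34 and 7.15 under HF. The highest HF library, 2127, still lay well below the lowest LF value. On the log2 scale of normalised reads + 1 the difference was -3.56 (SE 0.47, 95% confidence interval -4.62 to -2.51; limma adjusted p = 0.013), so it missed the calling threshold of an adjusted p under 0.01 with a fold above 1.5 or below 0.66.

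In males of VDD mothers, the comparison known when the genes were chosen, Apoc3 had 318, 341 and 204 scaled reads under LF, the highest levels of any group, and 14, 11 and 10.4 under HF. The log2 difference was -4.47 (SE 0.29). In females of CTRL mothers the values were 107, 104 and 143 under LF and 10.9, 7.66 and 29.8 under HF, a log2 difference of -3.04 (SE 0.46, interval -4.11 to -1.96, limma adjusted p = 0.0219). Daughters of VDD mothers had 183, 202 and 126 under LF and 107, 54.9 and 43.2 under HF. All 3 of these HF libraries lay above those of the other HF groups, and the log2 difference of -1.38 (SE 0.39, interval -2.29 to -0.47) had a limma adjusted p of 0.837. Averaged over both kinds of mothers in 1 fit to the 24 libraries, Apoc3 fell in HF females by 2.19 on the log2 scale (SE 0.33, limma adjusted p = 0.00412), a 4.58-fold lower level. It was the single member called there, where 0.272% of 18399 genes were called. The call was lost when any 1 of 7 of the 12 female libraries was left out (log2 difference -2.46 to -2 and limma adjusted p 0.00251 to 0.0164 over the 12 omissions). The same average in males, given as a description, was -4.01 (SE 0.33).

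**Figure D2:**
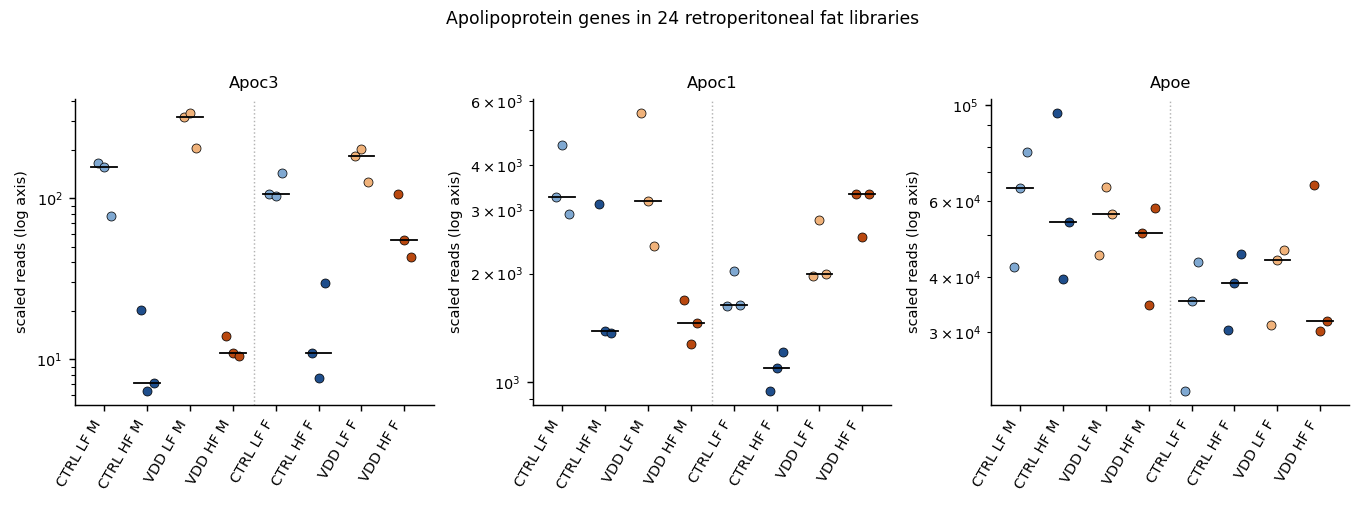
Scaled reads (log axes) of Apoc3, Apoc1 and Apoe in each of the 24 libraries, by maternal diet, offspring diet and sex (M male, F female). Points are libraries and bars are group medians. Apoc3 is between 6.34 and 29.8 in the HF groups other than VDD HF females and between 77.3 and 341 in the LF groups, while Apoe overlaps between LF and HF in every pair.

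The order of the group means of Apoc3 ran from VDD LF males (287 ± 73.4, SD, n = 3), VDD LF females (170 ± 39.4), CTRL LF males (133 ± 48.7), CTRL LF females (118 ± 21.4) and VDD HF females (68.3 ± 33.8) to CTRL HF females (16.1 ± 12), VDD HF males (11.8 ± 1.94) and CTRL HF males (11.2 ± 7.76). Neighbours in this order overlapped, except that VDD LF males lay above VDD LF females and VDD HF females above CTRL HF females. Depth set a limit for the low groups, since in HF males Apoc3 rested on 7 to 18 reads per library with CTRL mothers and 12 to 15 with VDD mothers.

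The summed adipocyte markers were lower under HF in males, with overlap, and in CTRL females, without it, but single markers differed in both directions. The sum was 675566 to 1062534 in CTRL LF males and 423545 to 722898 in CTRL HF males, and 546646 to 654238 in CTRL LF and 411631 to 446951 in CTRL HF females. For VDD mothers it was 474861 to 902095 in LF and 429476 to 515532 in HF males. VDD females had similar ranges under both diets, 532845 to 919929 in LF and 543661 to 886023 in HF libraries. Of the 8 markers, 7 were lower in CTRL HF males, 5 in VDD HF males and 5 in CTRL HF females. Cfd, one of the most abundant, averaged 231752 ± 66695 scaled reads in VDD LF and 47193 ± 10627 in VDD HF males (SD, n = 3), while Adipoq averaged 60091 ± 8057 and 67056 ± 12234. Macrophage markers were higher under HF in CTRL females, with 7104 to 9969 in LF and 14908 to 17588 in HF libraries, and at an unadjusted p under 0.05 (limma) 7 of 12 were higher there, 7 of 12 in CTRL males and 6 of 12 in VDD males. Brown adipocyte markers summed to 801 to 2604 in CTRL LF males and 305 to 662 in CTRL HF males. In CTRL females they summed to 1162 to 10040 under LF and 278 to 906 under HF. There 5 of 7 were lower at an unadjusted p under 0.05 (limma), beside 14.4% of all genes. Their median log2 difference was -2.66, in the pair where Apoc1, Mylip and Lpcat3 were also lower without overlap. Alb, the one hepatocyte marker with a median of at least 10 scaled reads, had 913 to 1049 scaled reads in CTRL LF and 327 to 897 in CTRL HF males, without overlap, and 463 to 752 in VDD LF and 208 to 629 in VDD HF males. In females Alb had 275 to 538 in CTRL LF and 251 to 406 in CTRL HF libraries. The other hepatocyte markers together had between 11.5 and 893 over the 24 libraries, the highest being VDD LF female 2303. The part of these markers in the results was not tested. A covariate, the mean log2 value of the 8 muscle genes, was chosen after seeing the data. With it the Apoc3 difference was -3.53 (limma adjusted p = 0.0187) in CTRL males and -3.05 (adjusted p = 0.0217) in CTRL females. That fit was made only in the CTRL pairs, where the highest muscle sums were 69665 in LF male 2287 and 53745 in LF female 2335. It is given as a description, and the part of muscle was not tested there or in offspring of VDD mothers.

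Apoc1 followed Apoc3 in direction, with smaller differences, except in daughters of VDD mothers. CTRL LF males had 3254, 4547 and 2918 scaled reads and CTRL HF males 3111, 1387 and 1374. The groups overlapped through HF library 2127 alone, which also had the highest Apoe, Nr1h3 and Nr1h2 of its group. The log2 difference was -0.97 (SE 0.32, limma adjusted p = 0.163). Leaving out each of the 6 libraries in turn gave -1.35 (without 2127) to -0.77 (without LF library 2293). The limma adjusted p ranged from 0.0424 to 0.45 over these omissions. In females of CTRL mothers Apoc1 went from 1632, 2038 and 1635 under LF to 946, 1096 and 1216 under HF, without overlap (log2 difference -0.73, SE 0.14, limma adjusted p = 0.0345). Males of VDD mothers had 5585, 3185 and 2387 under LF and 1695, 1281 and 1464 under HF, again without overlap, a log2 difference of -1.25 (SE 0.32).

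Daughters of VDD mothers stood apart for Apoc1. They had 1973, 2809 and 1990 scaled reads under LF and 3313, 2530 and 3316 under HF, so the groups overlapped and 2 of the 3 HF libraries lay above every LF library. The difference between the diet effects of the 2 kinds of mothers in females, the interaction, was 1.15 for Apoc1 (SE 0.42), 1.62 for Apoc3 (SE 0.65) and 0.61 for Lpcat3 (SE 0.28) on the log2 scale. None of these passed the correction, and limma-voom called 0 members as well (limma adjusted p = 0.692, 0.748 and 0.777). At an unadjusted p under 0.05, 3 of 9 members had a higher interaction value, where 3.21% of all genes did, and 0% of genes were called. In males the interaction of Apoc3 was -0.91 (SE 0.65), given as a description.

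Apoe did not share this pattern. It had 42246, 64438 and 77996 scaled reads in CTRL LF males and 95986, 39591 and 53746 in CTRL HF males, and LF and HF overlapped in each of the 4 pairs. Group means lay between 33581 ± 10913 (CTRL LF females) and 63108 ± 29340 (CTRL HF males; SD, n = 3). The spread within a group was thus as large as any difference by diet, and none of the diet comparisons outside VDD males had an unadjusted p under 0.05 for Apoe.

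Apoc1 and Apoe are neighbours, and the ratio of their reads within a library does not depend on scaling. Apoc1 reads per 1000 Apoe reads were 37.4, 70.6 and 77 (lowest, median and highest) in CTRL LF males and 25.6, 32.4 and 35 in CTRL HF males. In females of CTRL mothers they were 37.6, 57.7 and 74.6 under LF and 26.8, 28.1 and 31.3 under HF. Males of VDD mothers had 42.6, 49.2 and 124 under LF and 25.3, 33.4 and 37 under HF. The ratio was lower under HF without overlap in these 3 pairs, while in VDD females it was 43, 63.3 and 64 under LF and 50.7, 83.8 and 104 under HF, with overlap. Apoc3 reads per 100 Apoc1 reads were also lower under HF without overlap in each of the 4 pairs, for example 2.65, 3.46 and 5.08 against 0.46, 0.52 and 0.65 in CTRL males. In VDD females they were 6.34, 7.18 and 9.27 against 1.3, 2.17 and 3.22, so Apoc3 was lower relative to Apoc1 in that group as well.

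**Figure D3:**
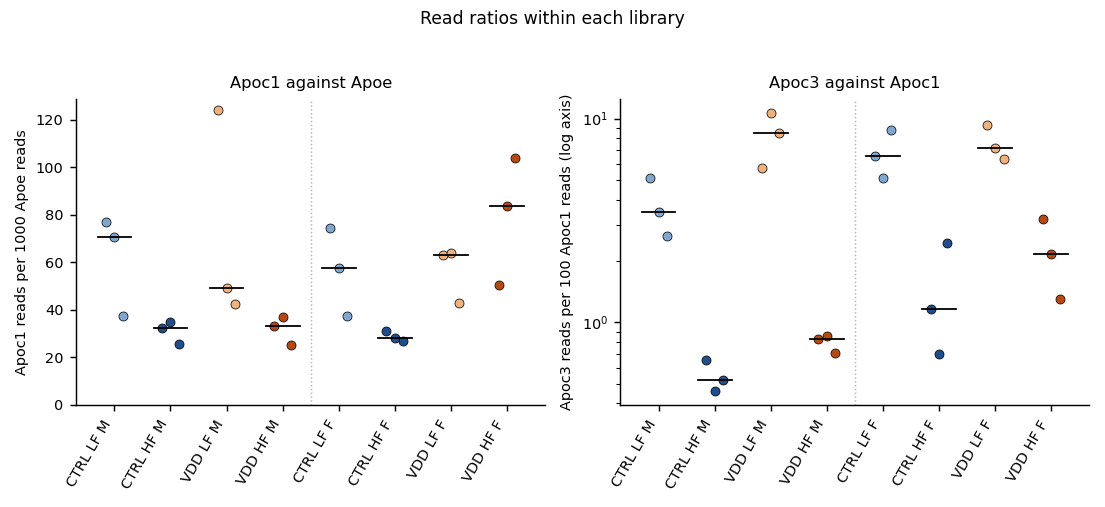
Apoc1 reads per 1000 Apoe reads (left) and Apoc3 reads per 100 Apoc1 reads (right, log axis) within each library, by group (M male, F female). Points are libraries and bars are group medians. The Apoc1 ratio is lower under HF than LF except in VDD females, and the Apoc3 ratio is lower under HF in all 4 pairs.

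Apoc2, the lipase activator, had almost no reads counted for it. Reads in the 79.5% of its exon bases shared with Gm44805 could not be given to 1 gene, so the count may understate its level. It had 10 reads in all 24 libraries together, found in 4 libraries with at most 5 reads in any of them. Its values were 2.56 and 4.95 scaled reads in VDD LF males 2078 and 2302, 1.7 in VDD HF male 2307 and 1.25 in VDD LF female 2303. It failed the filter of at least 10 normalised reads in at least 3 libraries in every comparison. A count of 0 allows up to 3 reads, which is 2.05 to 3.86 scaled reads at these depths (counting error only, without reads in the shared bases). The read-through Gm44805 had 6 reads in 5 libraries. All other members, 9 of 10, passed the filter in every comparison, and the counts that follow are over these 9.

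Of the receptors, Nr1h3 had lower values under HF than LF in males. It had 2282, 2678 and 2428 scaled reads in CTRL LF males and 2582, 1463 and 1521 in CTRL HF males, where library 2127 fell within the LF range. The log2 difference was -0.47 (limma unadjusted p = 0.0723). Males of VDD mothers had 2104, 2554 and 1949 under LF and 1649, 1372 and 1512 under HF, without overlap, a log2 difference of -0.54 (SE 0.15). In females of CTRL mothers Nr1h3 had 1543, 1365 and 1760 under LF and 1189, 1402 and 1165 under HF, which overlapped (log2 difference -0.33, SE 0.14, limma adjusted p = 0.155). Nr1h2 was the steadiest of the genes, with group means from 861 ± 74.7 (VDD HF males) to 1100 ± 69.5 (VDD HF females; SD, n = 3), and LF and HF overlapped in CTRL males, where HF library 2127 (1309) was the highest of all 24.

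Both cholesterol exporters were lower under HF in sons of CTRL mothers without overlap. Abca1, which loads cholesterol onto lipid-poor apolipoprotein A-I, had 7748, 9420 and 6632 scaled reads under LF and 3840, 6391 and 5784 under HF (log2 difference -0.60, SE 0.25, limma adjusted p = 0.24). Abcg1, which passes cholesterol to larger high density lipoprotein particles, had 2038, 2375 and 3087 under LF and 1524, 970 and 1263 under HF (log2 difference -1.01, SE 0.22, limma adjusted p = 0.0658). Neither passed the correction, and neither separated by diet in the other 3 pairs. In VDD males Abcg1 had 875, 1601 and 1598 under LF and 951, 980 and 1048 under HF, so the diet groups overlapped through LF library 2078.

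**Figure D4:**
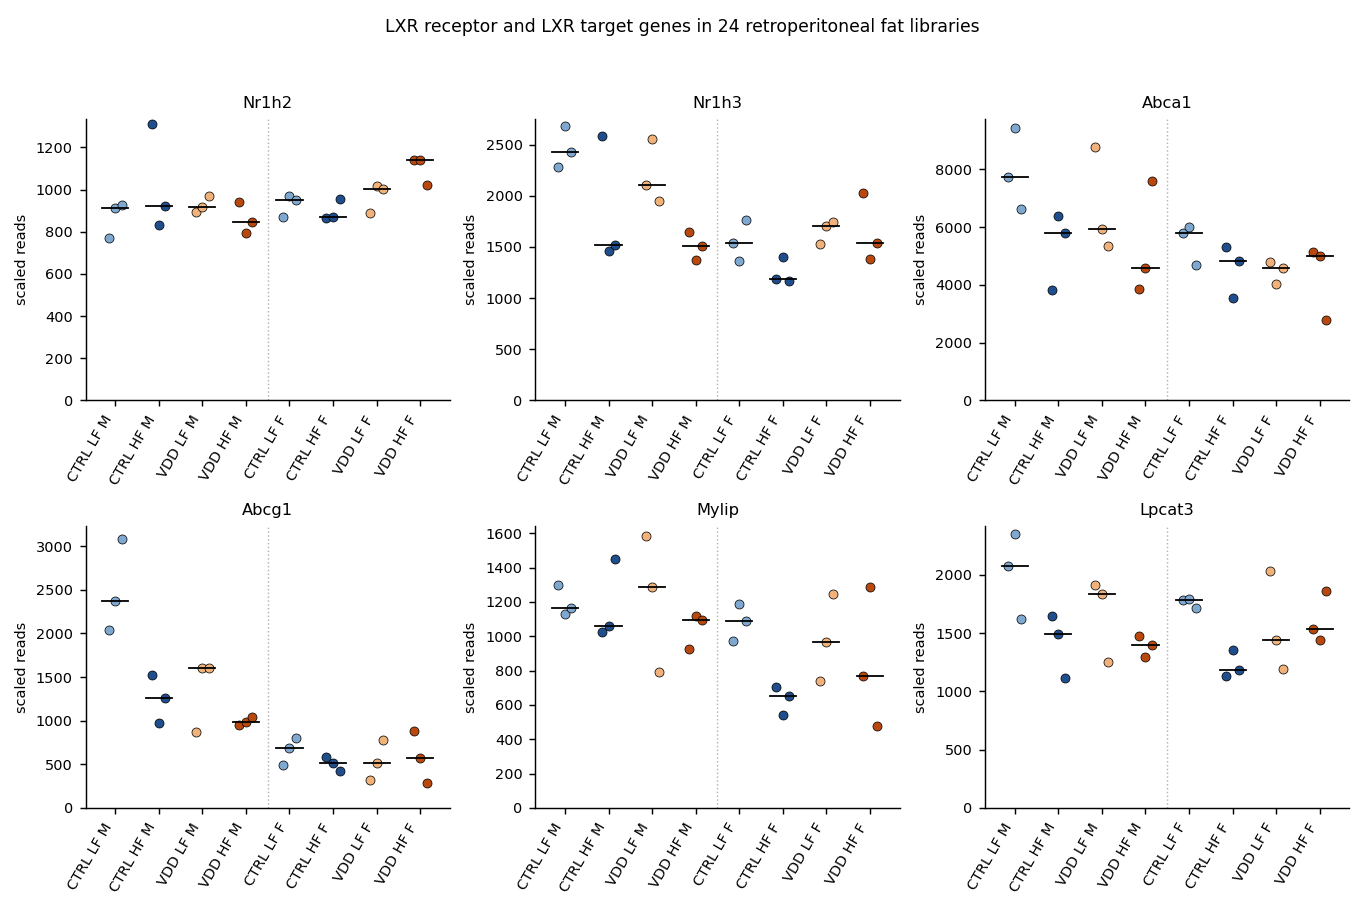
Scaled reads (linear axes from 0) of the 2 LXR receptor genes and 4 LXR target genes in each of the 24 libraries, by group (M male, F female). Points are libraries and bars are group medians. Abcg1 lies between 875 and 3087 in males and between 283 and 885 in females, and Nr1h2 varies least.

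Mylip and Lpcat3 were lower under HF in daughters of CTRL mothers. Mylip had 972, 1185 and 1086 scaled reads under LF and 705, 539 and 651 under HF (log2 difference -0.80, SE 0.13, limma adjusted p = 0.0268). Lpcat3 had 1782, 1793 and 1715 under LF and 1135, 1353 and 1188 under HF (log2 difference -0.55, SE 0.11, limma adjusted p = 0.0355). The groups did not overlap for either gene. In sons of CTRL mothers Lpcat3 overlapped between diets (log2 difference -0.52, SE 0.21, limma adjusted p = 0.23). In daughters of VDD mothers both genes overlapped between diets, with Mylip at 740, 965 and 1245 under LF and 769, 1286 and 480 under HF. Its lowest HF library, 2121, also had the lowest Abca1 and Abcg1 of all 24 libraries.

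As counts, 0 of 9 members were called in CTRL males by limma or limma-voom, where limma called 0.0578% of 15583 genes. At an unadjusted p under 0.05, 5 of 9 were lower under HF, against 8.73% of genes, and 3 (Abca1, Abcg1 and Apoc3) were lower without overlap, against 11.7%. In CTRL females 0 of 9 were called by limma or limma-voom, as was 0% of 16563 genes by limma, while 5 of 9 were lower at an unadjusted p under 0.05 (14.4% of genes) and 4 (Apoc1, Apoc3, Mylip and Lpcat3) were lower without overlap (18.2%). These 4 also had an adjusted p under 0.05, as had 7.40% of genes. The medians of the 9 differences were -0.52 and -0.40, beside -0.02 and 0.01 over all genes tested. In VDD males 3 members (Apoc3, Apoc1 and Nr1h3) were lower without overlap, as were 16.5% of genes, and 2 of 9 (Apoc3 and Apoc1) differed by more than 1.5-fold, as did 32.7% of all genes. In VDD females 0 of 9 were called by limma or limma-voom (0% of 15923 genes), 1 was lower at an unadjusted p under 0.05 (2.54%), and that gene, Apoc3, was lower without overlap (6.06%). The median was 0 there, beside -0.01 over all genes. Comparisons that share no mice gave these counts, but each group of libraries also enters a maternal comparison.

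**Figure D5:**
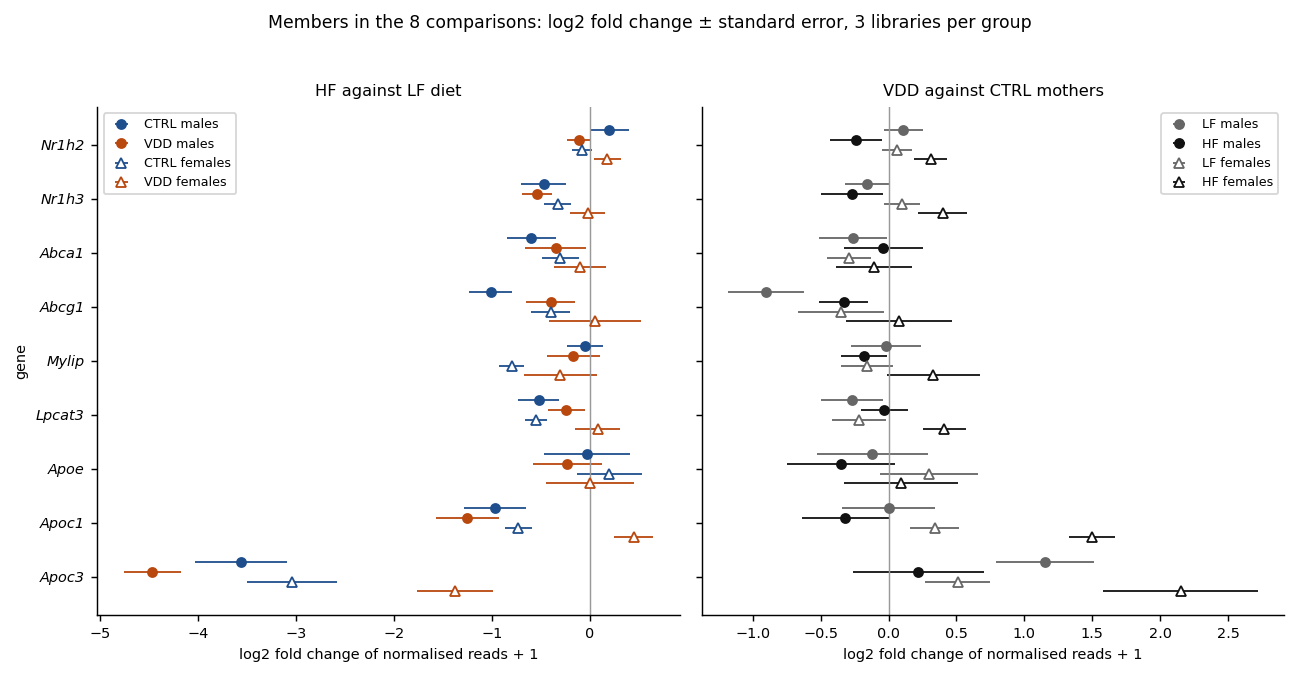
Log2 fold changes of normalised reads + 1 (points) with standard errors (bars) for the 9 members that passed the filter, HF against LF on the left and VDD against CTRL mothers on the right, with 3 libraries in each group. Circles are males and triangles are females. Apoc3 lies lowest in each HF against LF comparison, from -4.47 in VDD males to -1.38 in VDD females, and Apoc1 and Apoc3 in HF females lie farthest to the right among the maternal comparisons, at 1.5 and 2.15.

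The maternal diet was compared next, within each sex and offspring diet. In HF daughters Apoc1 was higher with VDD than with CTRL mothers: 3313, 2530 and 3316 scaled reads against 946, 1096 and 1216. The lowest VDD library lay well above the highest CTRL library. The log2 difference was 1.5 (SE 0.17, interval 1.09 to 1.9), the member's p ranked 3 among 16480 genes, and the limma adjusted p was 0.131. Apoc3 had 107, 54.9 and 43.2 against 10.9, 7.66 and 29.8, again without overlap (log2 difference 2.15, SE 0.57, interval 0.79 to 3.5, limma adjusted p = 0.174).

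The receptor Nr1h2 and Lpcat3 were also higher without overlap in VDD HF than CTRL HF females. Nr1h2 had 1139, 1142 and 1020 against 865, 868 and 955 (log2 difference 0.31, SE 0.12, limma adjusted p = 0.272), and Lpcat3 had 1537, 1441 and 1865 against 1135, 1353 and 1188 (log2 difference 0.41, SE 0.16, limma adjusted p = 0.26). No member was called by limma or limma-voom, as was 0% of genes by limma, 4 of 9 were higher without overlap against 11.1% of genes, and the same 4 had an unadjusted p under 0.05 against 7.60%. The median of the 9 was 0.33, beside 0 over all genes. Brown adipocyte markers differed between the same groups, with sums of 278 to 906 in CTRL HF and 2867 to 37581 in VDD HF females. The adipocyte sum was 411631 to 446951 in CTRL HF and 543661 to 886023 in VDD HF females, also without overlap. Sums of the kidney and mesothelium lists were higher in CTRL HF than in VDD HF females without overlap. They were 531 to 773 against 18.6 to 136 for kidney and 7374 to 14176 against 3065 to 6266 for mesothelium. Outside VDD LF female 2303, Cdh16 reached 394 and Lrp2 561 scaled reads, and no other kidney gene exceeded 13.4. In CTRL HF females the kidney sums thus rested mainly on Cdh16 and Lrp2. Adrenal sums overlapped, with 404 to 32566 in CTRL HF and 73.5 to 18876 in VDD HF females. The part of all these markers in the result was not tested.

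LF daughters differed less. Apoc1 had 1632, 2038 and 1635 with CTRL mothers and 1973, 2809 and 1990 with VDD mothers, which overlapped (log2 difference 0.34, limma unadjusted p = 0.0969), and 0 of 9 members were called by limma or limma-voom or had an unadjusted p under 0.05 (0% of 16046 genes called by limma, 5.52% higher and 6.53% lower at that unadjusted p). Averaged over the diets in females, Apoc1 was higher with VDD mothers by 0.91 (SE 0.21, limma adjusted p = 0.0369) and Apoc3 by 1.32 (SE 0.33, adjusted p = 0.0456). An adjusted p under 0.05 was reached by 2.02% of genes, and 0% were called.

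In LF sons 0 of 9 members were called by limma or limma-voom (0% of 15438 genes by limma), and 2 had an unadjusted p under 0.05, 1 higher (as had 3.12% of genes) and 1 lower (3.67%). Apoc3 was higher with VDD mothers without overlap, 318, 341 and 204 against 165, 157 and 77.3 (log2 difference 1.15, SE 0.36, limma adjusted p = 0.664), as were 6.83% of genes. The VDD male libraries also gave the fall of Apoc3 known when the genes were chosen. Its p-values in comparisons that use these libraries are thus not independent of that choice. Abcg1 was lower without overlap, 875, 1601 and 1598 against 2038, 2375 and 3087 (log2 difference -0.90, SE 0.28, limma adjusted p = 0.664), as were 6.59% of genes. In HF sons 0 of 9 were called by limma or limma-voom or had an unadjusted p under 0.05 (0% of 16013 genes called by limma, 3.18% higher and 2.12% lower at that unadjusted p). Apoc3 there differed by 0.22 with an interval from -0.90 to 1.35, which spans differences of more than 1.5-fold in both directions. The averages over diets in males were -0.61 for Abcg1 (limma adjusted p = 0.39) and 0.69 for Apoc3 (adjusted p = 0.453), and 0% of genes were called.

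Sex gave the clearest difference for Abcg1. Averaged over the 4 diet groups it was lower in females by 1.38 on the log2 scale (SE 0.17, limma adjusted p = 2.29e-05), a 2.6-fold difference. Over the 12 libraries of each sex it ranged from 875 to 3087 scaled reads in males and from 283 to 885 in females, so the sexes overlapped only between VDD LF male 2078 and VDD HF female 2081. Abcg1 was the 1 member of 9 called, where 7.27% of 18399 genes were called. Macrophages express Abcg1, and of 12 macrophage markers 5 were called lower in females and 11 were lower in direction, with a median log2 difference of -0.89. Their sum was 7069 to 41789 in males and 6864 to 26736 in females. Their part in the result was not tested.

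Other members were lower in females by less. Nr1h3 differed by -0.37 (SE 0.09, limma adjusted p = 0.009), which is within 1.5-fold and so was not called. Apoe differed by -0.55 (SE 0.19, adjusted p = 0.0446), Mylip by -0.44 (SE 0.14, adjusted p = 0.0347) and Abca1 by -0.40 (SE 0.14, adjusted p = 0.0488). Apoc1 (-0.34), Apoc3 (0.48), Nr1h2 (0.09) and Lpcat3 (-0.07) had adjusted p-values above 0.05. In all, 6 of 9 members were lower and 1 higher in females at an unadjusted p under 0.05, beside 15.2% and 17.8% of all genes.

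Lists of related genes gave the setting. Of 12 LXR partners and coregulators, 22 other LXR targets, 14 other apolipoprotein genes and 16 genes of lipoprotein receptors and processing, none was called by limma in any of the 8 comparisons between 2 groups. At an unadjusted p under 0.05, of the 20 other LXR targets that passed the filter in CTRL females 4 were higher and 7 lower under HF, where 14.4% of all genes were higher and 14.4% lower, and of 14 receptor and processing genes 0 were higher and 5 lower. Of the 19 other LXR targets tested in CTRL males, 1 was higher and 2 lower, beside 10% and 8.73% of all genes. In VDD females 0 of 18 had an unadjusted p under 0.05, beside 2.51% of genes higher and 2.54% lower. Of the 12 partners and coregulators, 4 were lower with VDD than with CTRL mothers in LF females, where 6.53% of genes were, and none was higher. The smallest p-values among them went to Apoc4, the neighbour of Apoc2, and the lipase Lipg in CTRL males under HF (log2 differences -2.11, SE 0.37, limma adjusted p = 0.0335, and -1.44, SE 0.32, adjusted p = 0.0692). In VDD males, given as a description, they went to the desaturase Scd2 (2.07, SE 0.27) and to Apoa1 (-2.44, SE 0.45), which lies in the cluster of Apoc3. In CTRL females they went to Mttp, which loads lipid onto nascent lipoproteins (-1.23, SE 0.25, limma adjusted p = 0.0343), and the sterol transporter Abcg5 (1.91, SE 0.40, adjusted p = 0.0371). In VDD females Mttp was among the first (-1.13, SE 0.36, limma adjusted p = 0.837).

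Pooled over mothers, Mttp fell under HF in females (by 1.17, SE 0.21, limma adjusted p = 0.00934). In the average of males, where 8.46% of genes were called by limma, Mttp was lower by 1.00 (SE 0.21), given as a description. Its group means were 227 ± 49.9, 251 ± 79.9, 281 ± 16.5 and 305 ± 112 scaled reads in the 4 LF groups (CTRL and VDD males, CTRL and VDD females) and 130 ± 9.27, 103 ± 14.6, 126 ± 40.7 and 138 ± 46.4 in the HF groups (SD, n = 3). Apoc4 was also lower under HF in the average of males, by 2.11 (SE 0.38), given as a description.

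In the 4 maternal comparisons between 2 groups no gene of these lists had a limma adjusted p under 0.05. The smallest p-values in HF females went to Apod (log2 difference 1.52, SE 0.31, limma adjusted p = 0.142) and the LXR partner Rxrb (0.45, adjusted p = 0.201). In LF males they went to the phospholipid transfer protein gene Pltp (-1.12, SE 0.31, limma adjusted p = 0.641) and Apod (-0.55, adjusted p = 0.691). In LF females Ttc39b (-0.50) and Ncor1 (-0.36) and in HF males Vldlr (0.69) and Scd2 (0.89) came first, with adjusted p-values of 0.391 and 0.94.

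The genes whose log2 levels were most like each of 3 members were found by Pearson correlation over the 24 libraries, after the mean of each sex was taken off, among 18399 genes. These are descriptions, and the libraries share diet groups and tissue composition. Apoc3 was most like D230025D16Rik (0.94), Snhg5, Gde1, Bnip3 (0.93 each) and Utp4 (0.92). For Apoc1 they were Bckdha (0.93), Rab5if (0.92), S100a1 (0.91), Kyat3 (0.90) and the assembled locus XLOC_047848 (0.90), and for Abca1 they included Erap1 (0.88), Ptbp3, Prkaa1 (0.87 each) and Tm9sf3 (0.86). Between members, Apoc3 correlated with Apoc1 at 0.77 and with Nr1h3 at 0.72, Apoc1 with Nr1h3 at 0.79 and with its neighbour Apoe at 0.31, and the exporters Abca1 and Abcg1 with each other at 0.37.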

How the data were processed

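RNA from retroperitoneal fat was sequenced (stranded polyadenylated libraries, NextSeq 500). After trimming (Sickle), the authors kept unique STAR 2.7.0d alignments, added transcripts with Cufflinks 2.2.1, counted with featureCounts 1.6.1 and compared groups with DESeq2, using mm10. The deposited values are log2(normalised reads + 1) for 6 libraries in each of 8 tables of 56899 entries; 4 entries with duplicated names were left out. Undoing the log2 and the size factor gave whole reads for 100% of values within 0.02, and these were rescaled by the median of ratios over 24 libraries. The deposited fold changes and p-values of the authors were not used. Groups came from the labels, and no pair of libraries within a group was identical (r 0.863 to 0.981 over 24 pairs). Each comparison was fitted with limma 3.58.1 (trend) (R 4.3.3) for all genes reaching 10 normalised reads in 3 or more libraries, with Benjamini-Hochberg adjustment; calls needed an adjusted p under 0.01 and a fold above 1.5 or below 0.66. Averages, interactions and sex came from 1 fit with 8 group means and 16 residual degrees of freedom. The procedure was tested on simulated data. Limma-voom, no filter, a pseudocount of 10, 1 fit over 24 libraries and leaving out each library were tried. Python 3.11.15 prepared the tables. Members and gene lists were chosen with earlier results of these data known. Named are all members, called genes of the lists, and the 2 listed genes with the smallest p per comparison; a few genes that this rule names are not reported here. Coordinates are from GENCODE M21 and may differ from the annotation counted.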

Additional observations from a re-analysis of the deposited data

How the results depend on the processing

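Over 42 results for single genes, 654 of 666 alternative values kept direction and side of the threshold, 3 passed it newly, 7 lost it and 2 with no test moved by more than the spread, and 0 reversed. Among the tested results only Apoc3 averaged in females and Abcg1 between the sexes were called. For the others, staying uncalled counted as keeping the side, so this share says little about stability. Of 182 alternative counts of members over 13 results (called members, or in VDD males members over 1.5-fold), 172 were within 1.5 times the reported count and 10 moved further. Most reported counts of called members were 0, where staying at 0 counted as unchanged. The count in VDD males was 2 and ranged from 2 to 3 when 1 library was left out, being 3 without VDD LF male 2078 or 2310 or VDD HF male 2298 or 2308, and it was 3 with no filter. In CTRL males the count of called members went from 0 to 1, Apoc3, with no filter on low reads (limma adjusted p = 0.00626) and in 1 fit over the 24 libraries (adjusted p = 0.00234), and in CTRL females from 0 to 1, Apoc3, in that fit (adjusted p = 0.006). For HF against LF averaged in females the count of 1 ranged from 0 to 1 when 1 library was left out. It was 0 without CTRL LF female 2125 or 2335, CTRL HF female 2290 or 2291, VDD LF female 2303 or 2311, or VDD HF female 2121, with Apoc3 between -2.46 and -2 and adjusted p-values from 0.00251 to 0.0164 over the 12 omissions. With a pseudocount of 10, Apoc3 was -2.74 in CTRL males, -3.74 in VDD males, -2.45 in CTRL females and -3.24 in the average of males, smaller by the construction of that scale. Leaving out 1 library gave 1.40 to 1.63 for Apoc1 and 1.77 to 2.68 for Apoc3 between CTRL HF and VDD HF females, and -1.05 to -0.62 for Abcg1 between CTRL LF and VDD LF males, the smallest without VDD LF male 2078. Abcg1 in females against males stayed between -1.47 and -1.27. No paired analysis was possible because the columns carry mouse numbers and not the replicate numbers of the sample titles. Low reads limit Apoc3 under HF and Apoc2 throughout.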

Other observations

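Among genes of the lists that are no members, the following differed between the sexes past the calling threshold, averaged over the 4 diet groups. Limma called 7.27% of 18399 genes there, and the share of the lists was not compared with it. Lower in females were Apoc4 (log2 difference -2.09, SE 0.27, limma adjusted p = 2.92e-05), the sterol 27-hydroxylase Cyp27a1 (-0.74, SE 0.11, adjusted p = 8.31e-05), Pltp (-1.12, SE 0.18, adjusted p = 0.000266) and Apod (-1.24, SE 0.23, adjusted p = 0.000813). Higher in females were Acaca, which makes malonyl-CoA for fatty acid synthesis (0.95, SE 0.24, adjusted p = 0.00937), Angptl8, a regulator of lipoprotein lipase (1.45, SE 0.32, adjusted p = 0.00364), and the phospholipid acyltransferases Lpcat2 (0.94, SE 0.18, adjusted p = 0.00129), Mboat1 (1.20, SE 0.23, adjusted p = 0.00119) and Mboat2 (1.40, SE 0.35, adjusted p = 0.00856). Lpcat3, the acyltransferase counted among the LXR targets, differed by -0.07.

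Apoc4, which lies between Apoc2 and Apoc1, had group means of 87.3 ± 28.3 (CTRL LF), 19.6 ± 6.89 (CTRL HF), 103 ± 52.1 (VDD LF) and 20.7 ± 4.62 (VDD HF) scaled reads in males (SD, n = 3). In females they were 15.6 ± 4.04, 5.72 ± 0.89, 13.0 ± 11.6 and 8.25 ± 4.91 in the same order. Of the sterol storage genes, Npc1, which moves cholesterol out of lysosomes, was lower under HF in males averaged over mothers (by 1.12, SE 0.22, given as a description). Among the averages in females, the log2 difference of Mertk under HF was -0.67 (SE 0.21, limma adjusted p = 0.0779), and with VDD mothers Apod differed by 1.12 (SE 0.32, adjusted p = 0.0672) and Lrp1 by -0.50 (SE 0.16, adjusted p = 0.0888).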
